A study of Mus musculus with 12 samples.

Results

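The mouse genome annotation holds 44 protein-coding genes whose symbol is Col, digits, a and digits, and these genes encode the alpha chains of the collagens. All 44 were among the 48795 genes measured, and they were taken as the members by that naming rule alone. The rule used no measured value, but the family was chosen with earlier results of these data known. They fall into 8 structural classes: 11 fibrillar chains, 9 fibril-associated chains with interrupted triple helices (FACIT), 9 network-forming chains, 6 beaded-filament chains, 4 transmembrane chains, 2 multiplexins, the anchoring-fibril chain Col7a1, and Col26a1 and Col28a1, which were set apart as others. RNA was sequenced from clones F5, G5 and H7, 3 Aebp1 knockout derivatives of the mouse fibroblast line NIH3T3, each at passages 7, 8 and 9, and from the wild-type Parental NIH3T3 population at passages 6, 7 and 8. All 4 lines were grown in DMEM/F12 medium with serum and carried no other labelled change. Each knockout line is a clone and the parental population is not labelled as one, so cloning and the loss of Aebp1 cannot be told apart. The sources used here do not give the position of the edit in Aebp1, and the labels do not call the passages separate cultures. The p-values therefore measure the spread between these libraries alone, which may be technical.

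A collagen molecule is a triple helix of 3 alpha chains, which may be copies of a single gene product or come from different genes, and the helix requires glycine as the first residue of each triplet. Fibroblasts assemble collagen I, built from the Col1a1 and Col1a2 chains, into the fibrils that carry load in connective tissue, with collagens III, V and XI incorporated into the same fibrils. FACIT collagens sit on fibril surfaces, the network collagen IV forms basement-membrane sheets, and collagen VI forms beaded microfilaments next to cells. AEBP1, also called aortic carboxypeptidase-like protein, is a secreted protein that binds fibrillar collagens.

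The repeat that defines the family can be read in the coding sequence. A stretch of Col3a1 on chromosome 1, codons 164 to 181, and a stretch of Col6a2 on chromosome 10, codons 271 to 288, are shown because these genes represent the classes with the most members past the test's threshold below. They were taken from the GRCm38 transcripts of GENCODE release M21, run 5′ to 3′ on the coding strand, and have the glycine codon that opens each triplet in capitals.
Col3a1: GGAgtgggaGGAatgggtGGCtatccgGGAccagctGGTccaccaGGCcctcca
Col6a2: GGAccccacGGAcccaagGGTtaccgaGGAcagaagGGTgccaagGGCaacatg
The classes differ in how long the repeat runs without a break. Among 8 fibrillar genes whose coding sequence was read, the longest unbroken run was between 216 and 344 glycine triplets. It was 37 to 87 triplets in the 6 beaded-filament genes, 32 to 113 in 5 FACIT genes and 40 to 66 in 8 network genes.

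Library totals lay between 22088714 and 31329755 counts, and the targeted transcript was measured first. Aebp1 had 214, 175 and 190 CPM (counts scaled to library size with TMM factors) in F5, 138, 124 and 123 CPM in G5 and 158, 131 and 153 CPM in H7, against 613, 467 and 579 CPM in Parental. All 9 clone libraries were below all 3 parental libraries, and the log2 fold change of the mean of the clones was -1.84 (SE 0.09, adjusted p = 1.69e-06, edgeR quasi-likelihood test). The labelled cell type was checked on markers: all 8 fibroblast markers had at least 1 TPM (a relative level corrected for transcript length, used here to compare genes) in every library, with a summed level of 6533 to 8314 TPM in the clones and 6909 to 6994 TPM in Parental. Epithelial, endothelial and muscle markers summed to at most 0.482, 0.885 and 0.935 TPM, and Epcam, Kdr, Myod1 and Myog were at 0 throughout. Cartilage markers summed to 47.0 to 105 TPM in the clones and 67.6 to 124 TPM in Parental, nearly all of it Sox9, with Cnmd at 0. The level of blood markers was 4.76 to 7.54 TPM in the clones and 4.50 to 6.33 TPM in Parental, nearly all Cd68, with Adgre1 and Cd3e at 0, and nerve-sheath markers summed to 1.38 to 3.63 TPM and 0.718 to 2.05 TPM in the same groups, with Sox10 at 0. In bulk RNA, fewer cells of a type and less RNA per cell cannot be told apart.

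The levels of the chains spanned more than 3 orders of magnitude, and collagen I dominated. Of the 44 members, 24 had a mean over the 12 libraries of at least 1 TPM, 15 of at least 10 TPM and 10 of at least 100 TPM. Those 10 members held 95.5% of all collagen TPM. Ordered by mean TPM they were Col1a2 (1941), Col1a1 (1823), Col6a1 (466), Col6a2 (343), Col6a3 (204), Col5a2 (181), Col16a1 (164), Col3a1 (163), Col5a1 (119) and Col4a1 (108). Some neighbours in this order overlapped in their library ranges, such as Col16a1 and Col3a1, and others did not, such as Col1a1 and Col6a1 or Col6a2 and Col6a3. Col9a1 and Col19a1 had 0 counts in every library. Of the members, 29 passed the filter on low counts and were tested, with total counts over the 12 libraries of 148 or more. The other 15 had totals of 59 or fewer and received no test, including Col9a2, Col24a1, Col25a1 and Col13a1, which had 2 to 7 counts.

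**Figure D1:**
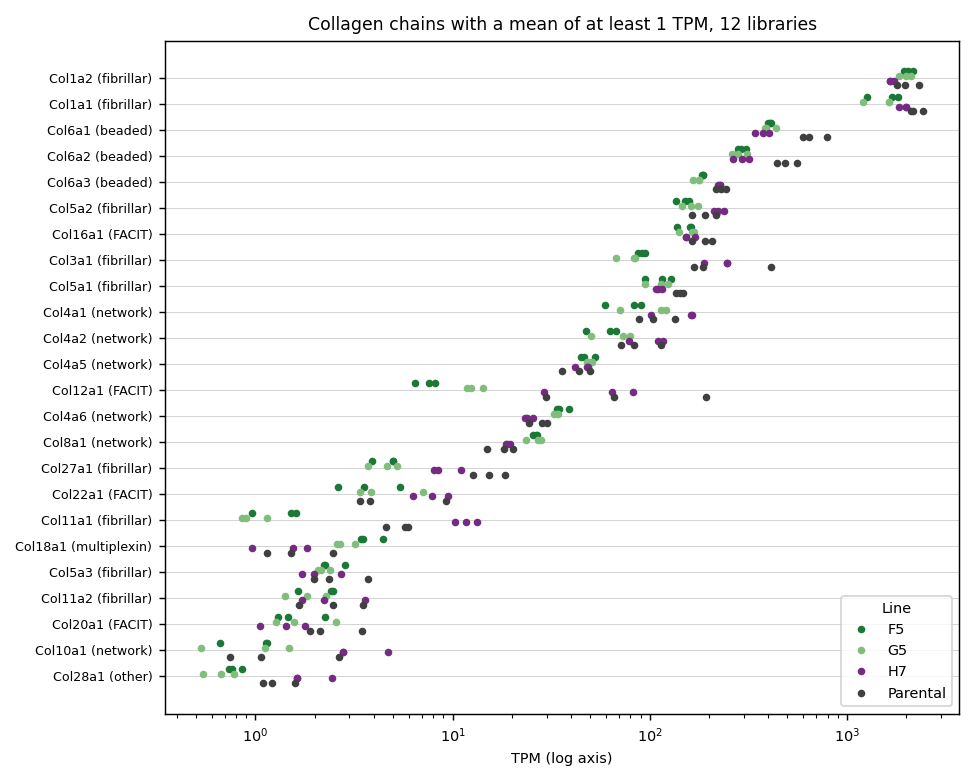
Level of the 24 collagen chains with a mean of at least 1 TPM, 1 row per chain with its class in parentheses, on a log axis of TPM. Each point is a library, coloured by line (F5, G5, H7, Parental); the means of Col1a2 and Col1a1 are 1941 and 1823 TPM, and the F5 and G5 points of Col12a1 and Col11a1 lie apart from those of H7 and Parental.

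Summed over all 44 members, the collagen RNA was lower in the clones. The sum was 5542, 4853 and 5572 TPM in F5, 5307, 4659 and 5568 TPM in G5 and 5504, 5648 and 5920 TPM in H7, against 6464, 7903 and 6305 TPM in Parental. The groups did not overlap, and the mean of the clone libraries was 0.783 of the parental mean. TPM is relative to all RNA, and the 7SL RNA gene Rn7s2 took 4.68% to 16.2% of TPM in the clone libraries and 14.6% to 18.8% in the parental libraries. The ratio was 0.747 on TPM of protein-coding genes rescaled to a common total, and 0.845 without parental passage 7. As a share of all counts, the collagen chains made up 1.38% to 1.85% in the clones and 1.91% to 2.39% in Parental. The classes did not fall in proportion. Beaded-filament chains had 814 to 948 TPM in the clones against 1276 to 1599 TPM in Parental, and network chains had 213 to 376 TPM in the clones against 258 to 343 TPM in Parental. The share of collagen TPM taken by beaded-filament chains was 15.2% to 17.8% in the clones and 19.7% to 21.5% in Parental, which did not overlap. No test was made on sums over members.

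The mean of the 3 clones was compared with the parental line to ask which chains go with the loss of Aebp1. Among the 29 tested chains, 10 were lower and 1 was higher at an adjusted p under 0.05. Over all 14704 genes tested, 10.5% were lower and 8.55% higher. The members' median log2 fold change was -0.27, against -0.02 over all genes tested. All 9 clone libraries lay below all 3 parental libraries for 5 chains (Col1a1, Col5a1, Col6a1, Col6a2 and Col27a1), where 5.16% of all genes did so, and above them for 0 chains, where 5.49% of all genes did. By class, 5 of 10 tested fibrillar chains, 4 of 4 beaded-filament chains and 1 of 5 FACIT chains were lower, and 1 of 6 network chains was higher. The 1 transmembrane chain, 1 multiplexin, Col7a1 and Col28a1 that were tested were not called. In the single clones, 10 chains were lower and 3 higher in F5 (7.37% and 6.88% of all genes), 10 lower and 1 higher in G5 (6.56% and 6.54%), and 3 lower and 1 higher in H7 (9.92% and 9.64%). These comparisons share the same 3 parental libraries, and their fit has no term for the order of passages. With such a term, 17 chains were lower and 3 higher in F5, 16 lower and 2 higher in G5, and 9 lower and 4 higher in H7. The share of all genes called in that fit is not given here, and the labels do not pair the libraries by that order.

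Some limits of these counts lie in differences between the clones. Of the chains called lower for the mean of the clones, only Col6a1, Col6a2 and Col27a1 were also called lower in H7, and Col11a1 was called higher there. With the 9 clone libraries as 1 group, 4 chains were called, all lower. Other limits lie in the parental line. Its library of passage 7 held the highest collagen sum and the highest level of Col3a1 and Col12a1. Values without it are given for each chain that lost a call without it and for some of the other named genes. Further genes changed in size: without it, Lum gave -2.02 and Loxl4 0.68 for the mean of the clones. Col18a1 then gave 1.69 in F5, and Col22a1 gave 0.60 in the middle passage against the outer ones. When the passages of each line were summed into 1 library per line, leaving 3 clones against 1 parental line, 0 chains passed the threshold with edgeR and 7 had an unadjusted p under 0.05.

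**Figure D2:**
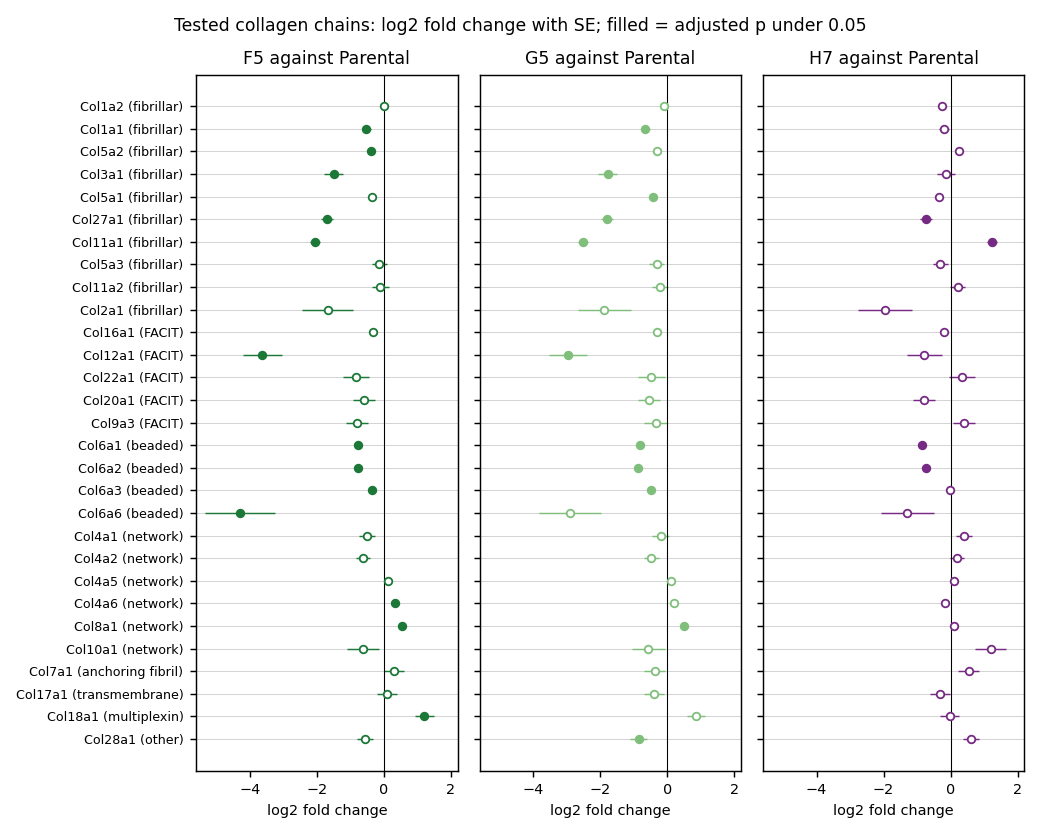
Log2 fold change (point) and its SE (bar) of the 29 tested collagen chains in F5, G5 and H7 against Parental, grouped by class from top to bottom. Filled points have an adjusted p under 0.05; filled points lie left of 0 for 10 chains in F5, 10 in G5 and 3 in H7, and Col11a1 is right of 0 in H7 and left of 0 in F5 and G5.

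In the beaded-filament class, Col6a1 and Col6a2 were lower in each of the 3 clones, and Col6a3 was lower in F5 and G5. Collagen VI is assembled from a chain each of Col6a1, Col6a2 and Col6a3. Col6a1 (ENSMUSG00000001119, GRCm38 chromosome 10 from 76708792 to 76726168, minus strand) had 914, 880.5 and 922 CPM in F5, 859, 862 and 910 CPM in G5 and 761, 854 and 941 CPM in H7, against 1379, 1757 and 1489 CPM in Parental. Col6a2 (ENSMUSG00000020241, chromosome 10 from 76595762 to 76623630, minus strand), 85161 bases from Col6a1, had 701, 632 and 660 CPM in F5, 623, 593 and 659 CPM in G5 and 593, 673 and 749 CPM in H7, against 1027, 1236 and 1129 CPM in Parental. For both genes every clone library was below every parental library, and the 3 clones overlapped each other. The log2 fold change of the mean of the clones was -0.81 for Col6a1 (SE 0.08, adjusted p = 7.08e-05) and -0.79 for Col6a2 (SE 0.08, adjusted p = 7.3e-05). In H7 the median log2 fold change of the tested genes of chromosome 10 was -0.21, and the H7 values relative to that median were -0.65 for Col6a1 and -0.55 for Col6a2, against -0.86 and -0.75 without it.

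The third chain did not keep step with its partners. Col6a3 (ENSMUSG00000048126, chromosome 1 from 90765923 to 90843971, minus strand) had 930.2, 900 and 913 CPM in F5, 878, 817 and 817 CPM in G5 and 1133, 1155 and 1145 CPM in H7, against 1178, 1201 and 1090 CPM in Parental. The F5 and G5 libraries were below all others, and the H7 libraries lay within the parental range. On the log2 scale, Col6a3 fell in F5 by 0.34 (SE 0.06, adjusted p = 0.00416). It fell in G5 by 0.47 (SE 0.06, adjusted p = 0.000703), and its value in H7 was -0.02 (SE 0.06, adjusted p = 0.893). The difference of F5 and G5 from H7 was -0.39 (SE 0.05, adjusted p = 0.000321). The tested genes of chromosome 1 had a median log2 fold change of -0.08 for F5 and -0.14 for both G5 and H7. With these medians subtracted, Col6a3 gave -0.26 (F5), -0.33 (G5) and 0.13 (H7), so the decreases were smaller. The difference of F5 and G5 from H7, relative to its own chromosome median, was -0.41. The ratio of Col6a3 to Col6a1 TPM was 0.457, 0.465 and 0.451 in F5, 0.457, 0.429 and 0.404 in G5 and 0.662, 0.607 and 0.551 in H7, against 0.382, 0.308 and 0.334 in Parental. The clone ratios were all above the parental ratios, and those of H7 above those of F5 and G5. Col6a1 over Col6a2 was 1.26 to 1.48 in the clones and 1.32 to 1.42 in Parental, which overlapped.

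Col6a6, a less common collagen VI chain, was near the limit of the libraries, with 5, 12 and 40 counts over the 3 libraries of F5, G5 and H7 against 91 counts in Parental. Its level was 2.60 CPM in the parental library of passage 7 and at most 0.921 CPM in every other library. It was called for the mean of the clones (log2 fold change -2.83, SE 0.67, adjusted p = 0.0133), and without parental passage 7 the value was -1.66 with an adjusted p of 0.146. In F5 the value was -4.29 (SE 1.05, adjusted p = 0.0203), and the call was lost without any 1 F5 library or without parental passage 7 (-3.12), with adjusted p of 0.057 to 0.0731. Its relatives Col6a4 and Col6a5 had 21 and 23 counts in all and were not tested.

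**Figure D3:**
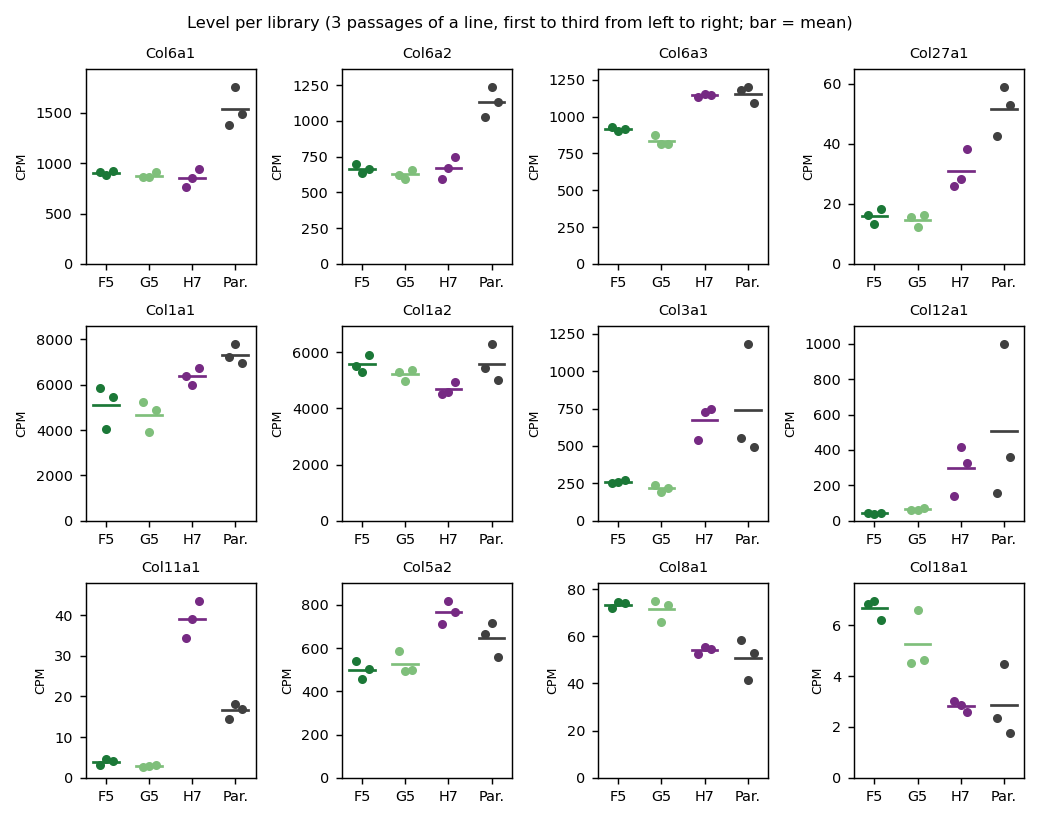
CPM of 12 collagen chains in each library, 1 panel per chain, with F5, G5 and H7 left of Parental (Par.); points are the 3 passages of a line in their order and the bar is their mean. Col6a1, Col6a2 and Col27a1 are lower in every clone, and Col11a1 in H7 is at 34.4 to 43.5 CPM against 2.72 to 4.67 CPM in F5 and G5 and 14.4 to 18.2 CPM in Parental.

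Of the fibrillar chains, Col1a1, Col3a1, Col11a1 and Col27a1 were called lower in both F5 and G5, and in H7 Col27a1 was lower and Col11a1 higher. Col1a1 and Col1a2 encode the pro-alpha1 and pro-alpha2 chains of collagen I. Col1a1 (ENSMUSG00000001506, chromosome 11 from 94936224 to 94953042, plus strand) had 5861, 4043 and 5442 CPM in F5, 5219, 3902 and 4896 CPM in G5 and 6365, 6005 and 6742 CPM in H7, against 7204, 7791 and 6974 CPM in Parental. All clone libraries lay below the parental ones, with a log2 fold change of -0.46 in the mean of the clones (SE 0.11, adjusted p = 0.0161) and of -0.41 without parental passage 7 (adjusted p = 0.0581). The value was -0.52 in F5 (SE 0.14, adjusted p = 0.0314), -0.65 in G5 (SE 0.14, adjusted p = 0.0121) and -0.20 in H7 (SE 0.14, adjusted p = 0.364). The F5 call was lost without F5 passage 8 (-0.37, adjusted p = 0.0865) or 9 (adjusted p = 0.0675), or without parental passage 6, 7 or 8 (adjusted p of 0.0525, 0.0672 and 0.054).

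Col1a2 (ENSMUSG00000029661, chromosome 6 from 4504814 to 4541544, plus strand) did not follow Col1a1. It had 5516, 5304 and 5886 CPM in F5, 5290, 4988 and 5358 CPM in G5 and 4492, 4593 and 4927 CPM in H7, against 5443, 6288 and 4991 CPM in Parental. F5 and G5 overlapped the parental libraries, and the H7 libraries lay just below them. The mean of the clones gave -0.12 (SE 0.07, adjusted p = 0.291), and H7 gave -0.26 (SE 0.09, adjusted p = 0.0686), or -0.04 relative to the H7 median of chromosome 6, which was -0.22.

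The balance of the collagen I chains therefore differed by line. A collagen I molecule is usually built from a pair of pro-alpha1 chains and a single pro-alpha2 chain. The ratio of Col1a1 to Col1a2 TPM was 0.888, 0.646 and 0.776 in F5, 0.826, 0.662 and 0.770 in G5 and 1.20, 1.11 and 1.16 in H7, against 1.11, 1.05 and 1.18 in Parental. The 6 ratios of F5 and G5 were below 1 and the 6 of H7 and Parental above it. The ratio was not tested. For the genes one by one, Col1a1 was lower in F5 and G5 than in H7 (-0.38, SE 0.12, adjusted p = 0.0393), a call lost without F5 passage 9, G5 passage 8 or 9, any 1 H7 library or parental passage 8, with adjusted p of 0.0512 to 0.15. Col1a2 gave 0.21 in the same comparison (SE 0.08, adjusted p = 0.0819).

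**Figure D4:**
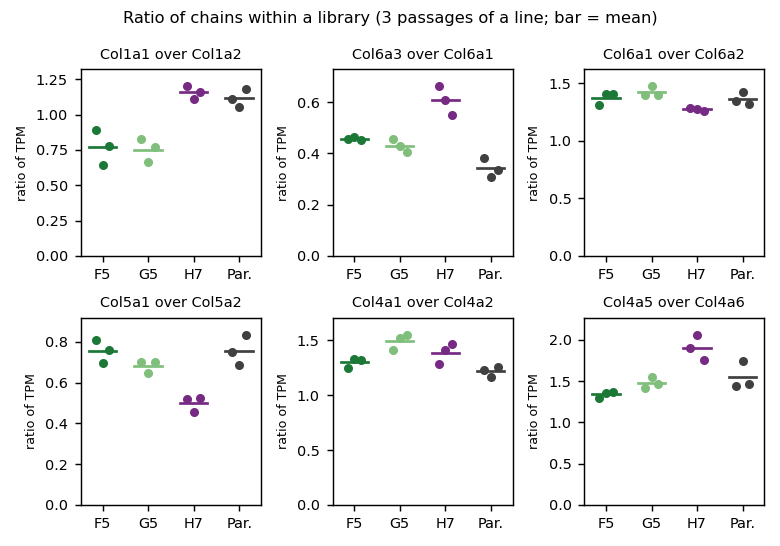
Ratio of the TPM of chain pairs of the same collagen type in each library, with F5, G5 and H7 left of Parental (Par.); points are the 3 passages of a line and the bar is their mean. Col1a1 over Col1a2 is 0.646 to 0.888 in F5 and G5 and 1.05 to 1.20 in H7 and Parental, and Col6a3 over Col6a1 is higher in all clones than in Parental.

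Col3a1, the chain of collagen III, which forms thin fibrils with collagen I, was lower in F5 and G5. Col3a1 (ENSMUSG00000026043, chromosome 1 from 45311538 to 45349706, plus strand) had 253, 262 and 271 CPM in F5, 236, 193 and 219 CPM in G5 and 541, 728 and 746 CPM in H7, against 553, 1181 and 495 CPM in Parental. F5 and G5 did not overlap Parental or H7, and H7 overlapped Parental. The log2 fold change was -1.50 in F5 (SE 0.27, adjusted p = 0.00471), -1.78 in G5 (SE 0.28, adjusted p = 0.00204) and -0.15 in H7 (SE 0.27, adjusted p = 0.758), and F5 and G5 differed from H7 by -1.50 (SE 0.22, adjusted p = 0.000689). The mean of the clones was -1.14 (SE 0.21, adjusted p = 0.00338), and -0.64 without parental passage 7 (adjusted p = 0.00308). Without that library the values were -1.0 in F5 (adjusted p = 0.000932) and -1.28 in G5 (adjusted p = 0.000217).

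Collagens V and XI are minor fibrillar collagens that sit in the core of collagen I and collagen II fibrils and limit their diameter. Col11a1 (ENSMUSG00000027966, chromosome 3 from 114030540 to 114220718, plus strand) had 3.22, 4.67 and 4.01 CPM in F5, 2.72, 2.86 and 3.23 CPM in G5 and 34.4, 39.1 and 43.5 CPM in H7, against 14.4, 18.2 and 17.0 CPM in Parental. Every F5 and G5 library was below Parental and every H7 library above it. The log2 fold change was -2.06 in F5 (SE 0.15, adjusted p = 2.87e-05), -2.50 in G5 (SE 0.15, adjusted p = 9.24e-06) and 1.23 in H7 (SE 0.14, adjusted p = 0.000151). The mean of the clones, -1.11 (SE 0.11, adjusted p = 0.000105), therefore averages opposite directions, and it was -0.12 with the 9 clone libraries in 1 group. F5 and G5 differed from H7 by -3.51 (SE 0.12, adjusted p = 3.1e-08). Its partner Col11a2 stood at 3.71 to 7.11 CPM in the clones and 4.04 to 6.75 CPM in Parental, with a value of -0.03 for the mean of the clones (SE 0.19, adjusted p = 0.928).

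The collagen V chains differed less. Col5a1 (ENSMUSG00000026837, chromosome 2 from 27886425 to 28039514, plus strand) had 594, 431 and 532 CPM in F5, 561, 435 and 488 CPM in G5 and 501, 505 and 557 CPM in H7, against 678, 676 and 644 CPM in Parental. All clone libraries were below Parental, and the mean of the clones gave -0.38 (SE 0.09, adjusted p = 0.0169). Among single clones it was called in G5 (-0.43, SE 0.12, adjusted p = 0.0354), and that call was lost without F5 passage 9, G5 passage 8 or 9, H7 passage 9 or any 1 parental library, with adjusted p of 0.0502 to 0.108.

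Col5a2 (ENSMUSG00000026042, chromosome 1 from 45374321 to 45503282, minus strand), which lies tail to tail with Col3a1 at a distance of 24614 bases, had 538, 455 and 504 CPM in F5, 585, 492 and 497 CPM in G5 and 713, 818 and 767 CPM in H7, against 665, 718 and 557 CPM in Parental. F5 was below Parental and H7 was above F5 and G5. The value was -0.37 in F5 (SE 0.11, adjusted p = 0.0418) and -0.30 in G5 (SE 0.11, adjusted p = 0.0946). For H7 it was 0.24 (SE 0.11, adjusted p = 0.145). Relative to the chromosome 1 medians, Col5a2 gave -0.29 (F5), -0.16 (G5) and 0.39 (H7). The F5 call was lost without any 1 F5 library, G5 passage 9, H7 passage 7 or 9, or parental passage 6 or 7, with adjusted p of 0.0526 to 0.137. The difference of F5 and G5 from H7 was -0.58 (SE 0.09, adjusted p = 0.000988), and Col5a1 gave -0.04 there (SE 0.10, adjusted p = 0.835). The ratio of Col5a1 to Col5a2 TPM was 0.454 to 0.524 in H7 and 0.646 to 0.810 in F5 and G5, against 0.687 to 0.832 in Parental. Col5a3, the third collagen V chain, had 5.67 to 9.46 CPM in the clones and 6.37 to 11.9 CPM in Parental and was not called.

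Col27a1, a fibrillar chain known from developing cartilage, was lower in all 3 clones. Col27a1 (ENSMUSG00000045672, chromosome 4 from 63214004 to 63334991, plus strand) had 16.1, 13.4 and 18.1 CPM in F5, 15.6, 12.2 and 16.3 CPM in G5 and 26.1, 28.3 and 38.1 CPM in H7, against 42.5, 58.9 and 52.9 CPM in Parental. The 3 groups of F5 with G5, H7 and Parental did not overlap. The log2 fold change was -1.70 in F5 (SE 0.18, adjusted p = 0.000235), -1.80 in G5 (SE 0.18, adjusted p = 0.000146) and -0.74 in H7 (SE 0.17, adjusted p = 0.0125), and the mean of the clones was -1.41 (SE 0.13, adjusted p = 7.08e-05). The H7 call was lost without H7 passage 7 (-0.63, adjusted p = 0.0586) or 8 (-0.68, adjusted p = 0.0513). F5 and G5 were lower than H7 by 1.01 on the log2 scale (SE 0.15, adjusted p = 0.000608). Col2a1, the cartilage fibrillar chain, had 163 counts over all libraries and was not called for the mean of the clones (-1.84, SE 0.59, adjusted p = 0.0512).

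In the FACIT class, 1 chain was called for the mean of the clones, and its level varied widely between the parental libraries. Col12a1 encodes collagen XII, which binds the surface of collagen I fibrils. Col12a1 (ENSMUSG00000032332, chromosome 9 from 79598991 to 79718831, minus strand) had 45.3, 36.9 and 41.7 CPM in F5, 62.0, 63.4 and 71.3 CPM in G5 and 141, 419 and 327 CPM in H7, against 159, 998 and 360 CPM in Parental. F5 and G5 lay below every H7 and parental library, and the H7 and parental libraries overlapped. The log2 fold change was -3.62 in F5 (SE 0.59, adjusted p = 0.00256), -2.95 in G5 (SE 0.57, adjusted p = 0.00682) and -0.78 in H7 (SE 0.53, adjusted p = 0.359), with a mean of the clones of -2.45 (SE 0.40, adjusted p = 0.0018). Without parental passage 7 the values were -2.65 in F5 (adjusted p = 0.00198), -1.98 in G5 (adjusted p = 0.00886) and -1.48 for the mean (adjusted p = 0.00935). F5 and G5 differed from H7 by -2.51 (SE 0.45, adjusted p = 0.00205).

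Of the other FACIT chains, Col16a1, which occurs in microfibrils and small fibrils, was the most abundant, and it had 367, 312 and 374 CPM in F5, 381, 316 and 370.4 CPM in G5 and 348, 369 and 419.7 CPM in H7, against 456, 379 and 483 CPM in Parental. The groups overlapped, and the mean of the clones was -0.28 (SE 0.09, adjusted p = 0.0573). Col22a1, known from tissue junctions, and Col20a1 were not called for the mean of the clones (adjusted p = 0.531 and 0.107), nor was Col9a3 (adjusted p = 0.562), a chain of the cartilage collagen IX whose partners Col9a1 and Col9a2 had 0 and 3 counts. Col14a1, a relative of Col12a1, had 16, 10 and 28 counts in F5, G5 and H7 and 5 counts in Parental and was not tested.

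Col8a1 was the chain that was higher for the mean of the clones. It encodes a short network-forming chain of collagen VIII, found in vessel walls and under the corneal endothelium. Col8a1 (ENSMUSG00000068196, chromosome 16 from 57624258 to 57754737, minus strand) had 71.8, 74.5 and 74.1 CPM in F5, 75.0, 65.9 and 73.2 CPM in G5 and 52.6, 55.4 and 54.4 CPM in H7, against 58.5, 41.3 and 52.8 CPM in Parental. F5 and G5 were above every other library, and H7 lay within the parental range. The log2 fold change was 0.53 in F5 (SE 0.11, adjusted p = 0.0079), 0.49 in G5 (SE 0.11, adjusted p = 0.0127), 0.09 in H7 (SE 0.11, adjusted p = 0.615) and 0.37 for the mean (SE 0.09, adjusted p = 0.0151), which was 0.24 without parental passage 7 (adjusted p = 0.0288). F5 and G5 exceeded H7 by 0.42 (SE 0.09, adjusted p = 0.0077).

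Collagen IV, the sheet-forming collagen of basement membranes, was represented by 4 expressed chains. Col4a1 had 211, 311 and 292 CPM in F5, 243, 399.9 and 352 CPM in G5 and 354, 582 and 571 CPM in H7, against 318, 460 and 364 CPM in Parental. Col4a2, its partner, had 168, 234 and 223 CPM in F5, 175, 278 and 241 CPM in G5 and 275, 418 and 404 CPM in H7, against 262, 398 and 300.4 CPM in Parental. Neither was called for the mean of the clones (-0.09, SE 0.19, adjusted p = 0.778 for Col4a1, and -0.30, SE 0.18, adjusted p = 0.268 for Col4a2). Both were lower in F5 and G5 than in H7, by -0.74 (SE 0.20, adjusted p = 0.0201) for Col4a1 and -0.74 (SE 0.18, adjusted p = 0.0141) for Col4a2. Those calls were lost without H7 passage 8 or 9, with adjusted p of 0.0687 to 0.0995.

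The Col4a5 and Col4a6 pair on the X chromosome behaved otherwise. Col4a5 had 150 to 178 CPM in the clones and 125 to 170.4 CPM in Parental, with a value of 0.11 for the mean of the clones (SE 0.09, adjusted p = 0.434). Col4a6 had 117, 131 and 114 CPM in F5, 113, 114 and 103 CPM in G5 and 86.8, 82.2 and 85.9 CPM in H7, against 105, 98.6 and 84.1 CPM in Parental. It was higher in F5 (0.33, SE 0.09, adjusted p = 0.0312), a call lost without F5 passage 7 or 8, H7 passage 8 or parental passage 8 (adjusted p of 0.0511 to 0.11), and higher in F5 and G5 than in H7 (0.44, SE 0.08, adjusted p = 0.00215). Col4a3 and Col4a4, the chains of the kidney filter, had 31 and 19 counts in all.

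Of the remaining classes, the multiplexin Col18a1, whose C-terminal fragment is endostatin, had 6.86, 6.97 and 6.21 CPM in F5, 4.53, 6.62 and 4.62 CPM in G5 and 3.02, 2.87 and 2.60 CPM in H7, against 2.37, 4.50 and 1.76 CPM in Parental. The F5 and G5 libraries lay above the others. Col18a1 was called in F5 (1.21, SE 0.28, adjusted p = 0.0166), was not called in G5 (0.86, SE 0.28, adjusted p = 0.0713) or H7 (-0.03, SE 0.29, adjusted p = 0.957), and was higher in F5 and G5 than in H7 (1.06, SE 0.25, adjusted p = 0.0107), with an adjusted p of 0.0534 without H7 passage 9. Slc19a1 overlaps it on the opposite strand, and the sources used here do not say whether counting used strand, so its counts are uncertain. The other multiplexin, Col15a1, did not pass the filter. It had 3, 4 and 0 counts over the 3 libraries of F5, G5 and H7, against 49 in Parental. Its parental libraries differed, at 0.984, 0.908 and 0.176 CPM, and the highest clone library was at 0.0941 CPM. Its level was 0.0516 of the parental one in F5 (95% counting interval 0.0103 to 0.16) and 0.0769 in G5 (0.0202 to 0.21), and at least 18.4-fold lower in H7, set against a floor of 3 counts over the group. These intervals cover counting error only.

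Col28a1, a chain with von Willebrand factor domains known from nerve, had 1.99, 1.76 and 1.70 CPM in F5, 1.24, 1.54 and 1.67 CPM in G5 and 3.14, 3.39 and 5.66 CPM in H7, against 2.19, 3.24 and 2.59 CPM in Parental. It was called in G5 (-0.85, SE 0.25, adjusted p = 0.049), a call lost without any 1 F5 or G5 library, H7 passage 8 or parental passage 7 or 8 (adjusted p of 0.056 to 0.168), and was lower in F5 and G5 than in H7 (-1.31, SE 0.21, adjusted p = 0.000939). Col7a1, the anchoring-fibril chain of skin, and Col17a1, a transmembrane chain of hemidesmosomes, had 1.44 to 3.86 CPM and 1.51 to 3.94 CPM in the clones, against 1.46 to 3.62 CPM and 2.33 to 3.04 CPM in Parental, and were not called in any clone.

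The clones were then set against each other, since all carry an Aebp1 knockout. The parental libraries enter this comparison through the estimate of the spread, not through the means compared. The difference lay between H7 and the other 2 clones. Between F5 and G5, 0 chains were called by edgeR, with 1 at an unadjusted p under 0.05 (Col11a1), 0 were called by DESeq2, with 4 at an unadjusted p under 0.05, and 0.258% of all genes were called. Between the mean of F5 and G5 and H7, 13 chains were lower and 3 higher, where 11.6% of all genes were lower and 11.6% higher. The members' median log2 fold change was -0.38, against 0.00 over all genes tested. Fibrillar chains gave 5 lower (Col1a1, Col3a1, Col5a2, Col11a1 and Col27a1), FACIT chains 3 (Col9a3, Col12a1 and Col22a1), network chains 3 (Col4a1, Col4a2 and Col10a1), and Col6a3 and Col28a1 were lower too. The 3 higher were Col4a6, Col8a1 and Col18a1. The chains Col6a1 and Col6a2 had values of 0.06 (SE 0.08, adjusted p = 0.66) and -0.06 (SE 0.08, adjusted p = 0.684).

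Among the less abundant of these, Col10a1, the chain of hypertrophic cartilage, had 0.907 to 2.51 CPM in F5 and G5 and 4.86 to 8.04 CPM in H7, a difference of -1.80 (SE 0.38, adjusted p = 0.00602). Nt5dc1 overlaps Col10a1 on the opposite strand, and the counts carry the same uncertainty. Col22a1 (-0.99, SE 0.33, adjusted p = 0.0493) lost its call without F5 or G5 passage 7 or 9 or without any 1 H7 library (adjusted p of 0.0701 to 0.157), and Col9a3 (-0.97, SE 0.28, adjusted p = 0.0265) without F5 passage 9, G5 passage 7 or 9 or H7 passage 7 or 9 (adjusted p of 0.0521 to 0.128). The median log2 fold change of the genes of a chromosome between F5 and G5 and H7 was 0.28 on chromosome 6, 0.19 on chromosome 10, -0.23 on chromosome 16 and -0.39 on chromosome 15, which hold Col28a1, Col10a1 with Col18a1, Col8a1, and Col22a1. Relative to these medians, the values were -1.59 for Col28a1, -1.98 for Col10a1, 0.87 for Col18a1, 0.65 for Col8a1 and -0.60 for Col22a1. The count of chains called was 10 without H7 passage 9 and 18 without parental passage 7.

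The passages of each line were compared across lines, with the line as a term in the fit. Col4a1 and Col4a2 were the chains called in both passage comparisons. In the middle passage against the outer ones, 6 chains were higher and 3 lower, where 16.5% of all genes were higher and 15.6% lower. With 29 chains tested, these counts were near the shares over all genes. The middle passage was passage 7 in Parental and passage 8 in the clones. In every line Col4a1 and Col4a2 were highest in the second passage and lowest in the first. Their log2 difference between the middle and the outer passages was 0.39 (SE 0.06, adjusted p = 0.0012) and 0.38 (SE 0.05, adjusted p = 0.00097). Col4a5 gave 0.18 (SE 0.05, adjusted p = 0.0258), a call lost without F5 passage 7 or 8, G5 passage 7 or 8 or parental passage 7 (adjusted p of 0.058 to 0.0823), and Col4a6 gave 0.07 (SE 0.05, adjusted p = 0.377). In the third passage against the first, 2 chains were called, both higher, where 0.741% of all genes were higher and 0.374% lower. These were Col4a1 (0.47, SE 0.07, adjusted p = 0.0139) and Col4a2 (0.41, SE 0.06, adjusted p = 0.0183). The calls were lost without F5, G5 or H7 passage 9 or G5 passage 7, and for Col4a2 also without F5 or H7 passage 7, with adjusted p of 0.0617 to 0.0946. The count of chains was 0 to 1 without any of these libraries and 7 without parental passage 7.

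Col4a1 and Col4a2 lie head to head on chromosome 8, and their first exons overlap by 22 bases. The overlap, chr8:11312805-11312826 (GRCm38.p6, plus strand, from the RefSeq promoter windows), is shown because it is the start shared by the pair that moved together with passage.
Col4a1 and Col4a2 overlap: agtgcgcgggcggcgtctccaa
Reads over these bases cannot be assigned to either gene without strand. The ratio of Col4a1 to Col4a2 TPM was 1.25 to 1.55 in the clones and 1.17 to 1.26 in Parental, which overlapped. Col4a6 and Col4a5 lie head to head as well, 1308 bases apart, and Col4a4 and Col4a3 71 bases apart.

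Other chains that moved with the middle passage were Col22a1 (0.82, SE 0.13, adjusted p = 0.00175), Col20a1 (0.72, SE 0.11, adjusted p = 0.0012) and Col6a6 (2.07, SE 0.27, adjusted p = 0.000786), all higher. Col6a6 had 148 counts over all libraries, and its call was lost in the fits with limma on log2 TPM (adjusted p up to 0.119). A gene on the same strand, BX649560.1, overlaps Col20a1, so the counts of Col20a1 are uncertain. Col22a1 had 9.50, 16.0 and 11.5 CPM in F5, 10.9, 22.9 and 13.7 CPM in G5 and 22.2, 31.9 and 29.1 CPM in H7, against 13.3, 37.3 and 14.7 CPM in Parental, in the order of passages, and was highest in the second passage of every line. The lower ones were Col16a1 (-0.21, SE 0.05, adjusted p = 0.0128, and 0.0525 without F5 passage 8), Col10a1 (-0.83, SE 0.20, adjusted p = 0.0106) and Col2a1 (-1.51, SE 0.41, adjusted p = 0.0177). Col2a1 gave -0.94 without parental passage 7 (adjusted p = 0.131).

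**Figure D5:**
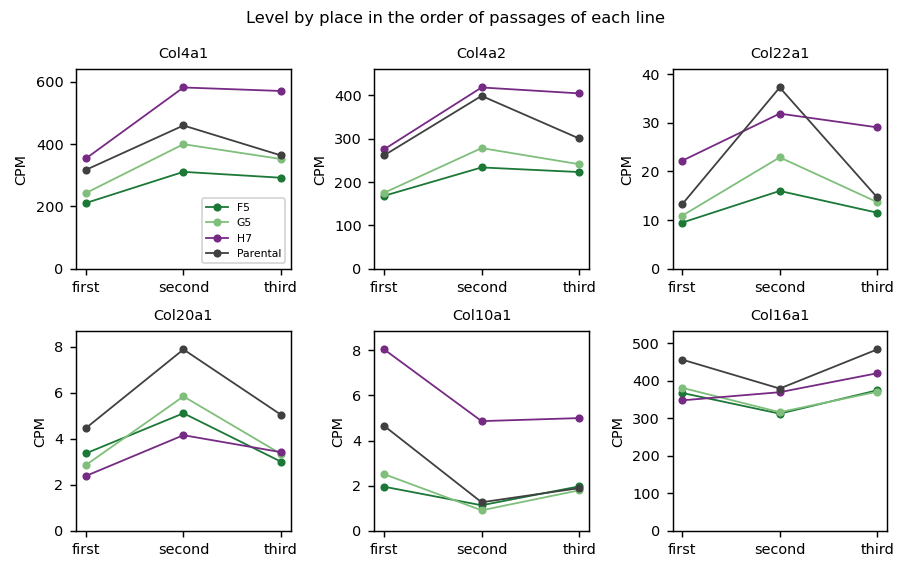
CPM of 6 collagen chains against the place of the passage in each line (its order in the line), 1 panel per chain and 1 coloured line for each of F5, G5, H7 and Parental. Col4a1, Col4a2, Col22a1 and Col20a1 are highest in the second passage of every line, and Col16a1 is lowest there in F5, G5 and Parental.

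The sequence before the start of the genes was compared in 300-base windows (250 bases before to 50 after the start) from RefSeq, GRCm38.p6. Windows were found for 35 of the 44 members and not for Col12a1, Col14a1, Col1a1, Col22a1, Col26a1, Col2a1, Col4a3, Col5a2 and Col9a3. Each motif was searched on both strands and counted on its own, so overlapping motifs count for both. GGGCGG, the GC box bound by Sp1 and its relatives, was in 62.9% of the member windows and 35.9% of all 27025 windows. The windows of Col4a1 and Col4a2 overlap, and the GGGCGG in the 22 bases where their first exons overlap counts for both. TATAAA, the core of the TATA box, was in 14.3% and 14.2%, CCAAT in 34.3% and 37.9%, TGANTCA, the AP-1 motif, in 2.86% and 7.93%, and GGAATG, the core bound by TEAD factors, in 11.4% and 14.6%. These are matches of letters and were not tested as sites.

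The 200 bases before the start are shown for 4 genes that stand for the patterns above: Col6a2, lower in all clones; Col3a1, lower in F5 and G5; Col11a1, lower in F5 and G5 and higher in H7; and Col8a1, higher in F5 and G5. Each runs 5′ to 3′ on the strand of its gene, and matches to the motifs, on either strand, are in capitals.
Col6a2, chr10:76623631-76623830, minus strand: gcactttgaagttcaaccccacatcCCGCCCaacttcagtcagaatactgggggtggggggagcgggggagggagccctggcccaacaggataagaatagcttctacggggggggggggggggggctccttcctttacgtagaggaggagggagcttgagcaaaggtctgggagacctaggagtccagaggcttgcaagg
Col3a1, chr1:45311338-45311537, plus strand: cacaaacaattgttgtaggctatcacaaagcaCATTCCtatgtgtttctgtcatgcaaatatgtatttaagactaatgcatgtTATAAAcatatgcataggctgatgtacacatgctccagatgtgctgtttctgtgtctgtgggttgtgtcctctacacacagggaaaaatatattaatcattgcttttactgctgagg
Col11a1, chr3:114030340-114030539, plus strand: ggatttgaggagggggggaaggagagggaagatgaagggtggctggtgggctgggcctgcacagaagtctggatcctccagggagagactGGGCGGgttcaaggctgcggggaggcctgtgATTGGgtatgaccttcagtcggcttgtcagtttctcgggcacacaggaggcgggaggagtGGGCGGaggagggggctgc
Col8a1, chr16:57754738-57754937, minus strand: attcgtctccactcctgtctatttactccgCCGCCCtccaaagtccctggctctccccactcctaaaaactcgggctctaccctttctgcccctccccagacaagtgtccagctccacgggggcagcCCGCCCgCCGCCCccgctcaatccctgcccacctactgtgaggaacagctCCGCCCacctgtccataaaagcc
Col8a1 holds 4 GC boxes, the nearest starting 23 bases before the gene start, and Col11a1 holds 2 with a CCAAT match between them. Col6a2 holds 1, and Col3a1 holds a TATAAA 117 bases and a GGAATG match 168 bases before its start.

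The genes that modify, fold, cut, crosslink and bind collagen chains were compared as 5 lists of 57 genes, of which 49 passed the low-count filter. In the comparison of the mean of the clones, 18 were lower and 5 higher, against 10.5% and 8.55% of all genes tested. The lower genes include Aebp1 itself, the targeted gene, which is on the list of fibril-associated proteins. Hydroxylation and glycosylation enzymes gave 4 lower and 3 higher of 14, chaperones and export factors 3 and 1 of 10, propeptide proteases and crosslinking enzymes 5 and 1 of 10, fibril-associated proteins 5 and 0 of 8, and receptors 1 and 0 of 7. Without parental passage 7, 11 were lower and 7 higher.

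In the hydroxylation list, 2 members of the prolyl 3-hydroxylase complex, Crtap and P3h1, were lower, and a lysyl hydroxylase was higher. Crtap, the cartilage-associated protein of that complex, averaged 65.0 ± 3.12 CPM in F5, 58.6 ± 1.80 CPM in G5 and 40.4 ± 2.14 CPM in H7, against 80.4 ± 6.07 CPM in Parental (SD, n = 3 each), with a mean log2 fold change of -0.59 (SE 0.06, adjusted p = 8.57e-05). P3h1, its enzyme, gave -0.50 (SE 0.07, adjusted p = 0.000785), and Ppib, the cyclophilin of the complex, -0.08 (SE 0.06, adjusted p = 0.363). P3h2, another prolyl 3-hydroxylase on the list, went opposite ways between the clones. It averaged 0.189 CPM in F5 and 0.343 CPM in G5, against 8.33 CPM in H7 and 2.76 CPM in Parental. Every F5 and G5 library was below Parental and every H7 library above it. Plod2, the lysyl hydroxylase of the chain ends, averaged 30.2 ± 1.72 CPM in F5, 31.1 ± 2.81 CPM in G5 and 27.1 ± 3.42 CPM in H7, against 14.6 ± 2.89 CPM in Parental, and its log2 fold change was 1.02 (SE 0.12, adjusted p = 0.000248). The subunits of prolyl 4-hydroxylase went both ways. The catalytic chains P4ha1 and P4ha2 gave 0.53 (SE 0.08, adjusted p = 0.00107) and 0.52 (SE 0.10, adjusted p = 0.0046), and P4hb, the protein disulfide isomerase subunit, gave -0.36 (SE 0.06, adjusted p = 0.00268). P4hb averaged 412 CPM in F5 and 377 CPM in G5, against 584 CPM in H7 and 579 CPM in Parental.

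Among export factors, Mia3, which loads procollagen into transport vesicles, gave -0.28 (SE 0.05, adjusted p = 0.00378), and its partner Mia2 gave 0.27 (SE 0.05, adjusted p = 0.00283). Sec23a, a coat protein of those vesicles (-0.31, SE 0.08, adjusted p = 0.0239), lost its call without G5 passage 7 (adjusted p = 0.05) or parental passage 7 (-0.17, adjusted p = 0.0968). Fkbp14, a prolyl isomerase, gave -0.60 (SE 0.16, adjusted p = 0.0274), and -0.27 without parental passage 7 (adjusted p = 0.151). Serpinh1, the collagen chaperone HSP47, was not among the called genes, with 342 to 468 CPM in the clones and 366 to 419.4 CPM in Parental.

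Among processing enzymes, Bmp1, the protease that removes the C-propeptides of fibrillar collagens, averaged 51.0 ± 2.84 CPM in F5, 51.0 ± 1.06 CPM in G5 and 35.4 ± 3.91 CPM in H7, against 69.1 ± 16.2 CPM in Parental (SD, n = 3 each), and its log2 fold change was -0.62 (SE 0.11, adjusted p = 0.00305). The value was -0.40 without parental passage 7 (adjusted p = 0.00498). The lysyl oxidases went both ways: Loxl1 gave -0.64 (SE 0.13, adjusted p = 0.00578), or -0.41 without parental passage 7 (adjusted p = 0.0194), and Loxl4 gave 0.90 (SE 0.17, adjusted p = 0.00433). Adamts14, a protease of the N-propeptides, gave -0.33 (SE 0.08, adjusted p = 0.0174), and -0.19 without parental passage 7 (adjusted p = 0.0666). Adamts14 averaged 39.7 CPM in F5, 29.0 CPM in G5 and 27.0 CPM in H7, against 39.4 CPM in Parental. Its F5 libraries lay within the parental range.

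Among the called genes of the 5 lists, the largest decreases were in fibril-associated proteins. Dcn, decorin, averaged 15.5 ± 5.51 CPM in F5, 10.6 ± 4.61 CPM in G5 and 87.9 ± 13.7 CPM in H7, against 187 ± 139 CPM in Parental (SD, n = 3 each), and its log2 fold change was -2.95 (SE 0.34, adjusted p = 0.000242). Without parental passage 7 the Dcn value was -2.14 (adjusted p = 0.000374). Lum, lumican, averaged 3.92 ± 0.943 CPM in F5, 3.99 ± 1.89 CPM in G5 and 44.4 ± 11.8 CPM in H7, against 51.5 ± 27.4 CPM in Parental. Its mean log2 fold change of -2.55 (SE 0.29, adjusted p = 0.000217) comes from -3.71 in F5 (SE 0.43, adjusted p = 0.000418) and -3.71 in G5 (SE 0.43, adjusted p = 0.000396), with -0.22 in H7 (SE 0.37, adjusted p = 0.738). Postn, periostin, gave -1.94 (SE 0.47, adjusted p = 0.015), which was -1.01 without parental passage 7 (adjusted p = 0.153). Lum and Postn overlapped between the clones and Parental. Aebp1 itself is on this list, and Tnxb is the fifth member called. Among receptors Mrc2, an uptake receptor for collagen, gave -0.34 (SE 0.09, adjusted p = 0.0237), with adjusted p of 0.109 and 0.0518 without parental passage 7 or 8.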

How the data were processed

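Ribosome-depleted, stranded total-RNA libraries were sequenced from both ends, per the labels' protocols. The authors deposited estimated counts per gene, not normalised, and TPM, which summed to 1000000 in each library. Within a tolerance of 0.01, 86.9% of count values above 0.5 were whole; all were rounded for the tests. The build was GRCm38, per the submitters' processing notes. For the aligner, the counter and the use of strand: not given in the sources used here. Symbols and coordinates are from GENCODE M21, which named 48435 of 48795 genes.

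Tests used edgeR 4.0.16 (R 4.3.3): TMM factors, filterByExpr on the 4 groups (14704 genes), quasi-likelihood F-tests with group as the term (8 residual degrees of freedom; 6 for passage fits, with line and place in the order as terms), and Benjamini-Hochberg adjustment over all genes, called under 0.05. The biological coefficient of variation was 15.5%, and SEs come from the F statistic. Alternatives used DESeq2 1.42.0, limma 3.58.1 and Python 3.11.15, and the tests were tested on simulated data. Named chains were the 10 highest by TPM, those called for the mean of the clones or past a log2 fold change of 1 in a clone, and their partners; from each other list, the 4 smallest adjusted p. Other chains and genes named by class or call were chosen with their values in view. The members and lists were chosen with earlier results of these data known.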

Additional observations from a re-analysis of the deposited data

Results flagged for a closer look

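Col11a1 moved in opposite directions in the clones: all 6 libraries of F5 and G5 were below the 3 parental libraries and all 3 libraries of H7 were above them. The direct test of F5 and G5 against H7 gave a log2 difference of -3.51 (SE 0.12, adjusted p = 3.1e-08, edgeR), and the value lay between -3.59 and -2.57 over the alternatives.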

How the results depend on the processing

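Over 83 pairs of a called gene and a comparison, 1859 values were recomputed under other settings; 1673 kept direction and call, 182 lost the call, 4 moved by more than the SD between replicates when the median of the chromosome was subtracted (Col6a3 in F5 and G5, Col6a1 and Col6a2 in H7) and 0 reversed. With 11 chains called for the mean of the clones, other settings gave 0 with counts summed per line (the fit then has 4 libraries) and 4 with the 9 clone libraries as 1 group. In F5 (13) the count was 20 with a block for the order of passages (17 lower, 3 higher) and 6 with only the lines compared, in G5 (11) 18 (16 lower, 2 higher) and 7, and in H7 (4) 7 with DESeq2, 7 with limma on rescaled protein-coding TPM (chosen after seeing the data) and 13 with the order block (9 lower, 4 higher); the cause was not tested. The 5 collagen-related lists (23) gave 0 with counts summed per line and 14 with 1 clone group. Leaving out 1 library at a time gave 11 to 13 for the mean, 10 to 14 for F5, 9 to 12 for G5, 4 to 6 for H7, 10 to 18 for F5 and G5 against H7, 0 for F5 against G5, 8 to 11 for the middle passage, 0 to 7 for the third against the first, 18 to 24 for the lists and 0.751 to 0.845 for the ratio of summed TPM. With the passage number as a replicate block the counts were 11, 12, 11 and 6 for the mean, F5, G5 and H7, 16 for F5 and G5 against H7, 0 for F5 against G5 and 20 for the lists. The numbers do not pair the libraries: residuals of libraries with the same number correlated from -0.526 to 0.501, with 9 of 15 pairs over 0.1. Libraries at the same place in the order correlated from 0.045 to 0.503, with 16 of 18 pairs over 0.1; the labels do not tie them. The summed ratio was 0.771 in CPM, 0.691 without collagen I and 0.747 on protein-coding TPM. The 15 members with 59 counts or fewer in all had too few counts for the test.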
